A study of Mus musculus with 3 samples.

Results

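Dlx-positive cells were a small set of cells in 1 of 3 mouse gliomas that held transcripts of the Dlx homeobox genes, the transcription factors of the embryonic ganglionic eminences and of the interneurons born there. A cell was a member when it held at least 3 raw UMIs (unique molecular identifiers, counted transcript molecules) of Dlx1, Dlx2, Dlx5 and Dlx6os1 together. Its summed C1qa, C1qb, C1qc, Tyrobp, Fcer1g and Ctss, genes of microglia and macrophages, also had to be under 15 per 10000 UMIs. After cells with fewer than 500 genes or with over 20% of UMIs from mitochondrial genes had been set aside, the rule selected 61 of 9286 cells, all from tumour 2. Beside the Dlx genes they carried Sp8, Sp9, Dcx, Gad2 and Igfbpl1, genes of migrating interneuron precursors, at levels 10-fold or more above those of Dlx-zero cells of the same tumour, which had 0 UMIs of the 4 genes. Members were chosen by their measured Dlx and myeloid gene counts in these same cells, so every value is a description and no test was made.

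The series holds 3 K27M glioma libraries, 1 tumour each, from brains electroporated on postnatal day 1 or 2 with MADR constructs. MADR (mosaic analysis by dual recombinase) places a donor cassette into a recombinase-targeted locus of single somatic cells. All 3 tumours carried the H3f3aK27M PdgfraD842V Trp53R270H genotype, and were taken at postnatal day 150 (tumour 1), 106 (tumour 2) and 149 (tumour 4). The mice were heterozygous for Gt(ROSA)26Sortm4(ACTB-tdTomato,-EGFP)Luo, a fluorescent reporter allele at the Rosa26 locus, in a strain labelled B6.129(Cg). GFP+ cells were sorted and profiled with 10x droplet 3′ sequencing, which reads transcript ends. No tumour without these 3 alleles and no normal brain was analysed here, and the promoter that drives the cassette is not given in the labels. The tables held 3386, 1632 and 4624 cell barcodes in tumours 1, 2 and 4, of which 3361, 1548 and 4377 were kept, with median depths of 11939, 7783 and 9494 UMIs. Since the 61 cells shared 1 library, cells are not replicates, and 1 tumour against 1 tumour allows no test. Intervals below are exact 95% Poisson intervals for levels and exact 95% Clopper-Pearson intervals for shares, and both cover counting error only. For a share of 0 the upper limit printed is 3 counts of the total.

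Dlx genes lie in convergent pairs, transcribed towards each other, with shared enhancers between the partners. Dlx1 with Dlx2 and Dlx5 with Dlx6 are usually expressed together. In the mouse, Dlx1 and Dlx2 act in progenitors of the ganglionic eminences and of the adult ventricular-subventricular zone, upstream of Dlx5, Dlx6 and the GABA-synthesising enzymes. In the postnatal brain the best known Dlx-expressing dividing cells are the neuroblasts that migrate in chains to the olfactory bulb, which also carry the microtubule protein doublecortin (Dcx) and the zinc finger factors Sp8 and Sp9.

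The rule's genes occupy 2 clusters of the mm10 (GRCm38) genome. Dlx1 is on the plus strand at chr2:71528113-71533981 and Dlx2 on the minus strand at chr2:71543408-71546754. Dlx5 lies at chr6:6877805-6882085 on the minus strand. Dlx6os1, a long noncoding RNA also known as Evf2, spans chr6:6820189-6871592 on the minus strand and overlaps Dlx6 on the plus strand at chr6:6863334-6868568. Dlx1as overlaps Dlx1 on the opposite strand, so reads of these antisense pairs can be told apart only where the counting used strand, a setting not given in the sources. The promoters of the 3 genes that supplied nearly all the Dlx UMIs, and of Dcx, are shown because these genes were found together in the same cells. Each is the window from 250 bases before to 50 after a transcription start listed by RefSeq (GRCm38.p6), 5′ to 3′ on the gene's strand, with capitals marking TAATTA, a palindromic homeodomain core.
Dlx1 promoter, chr2:71529195-71529494, plus strand: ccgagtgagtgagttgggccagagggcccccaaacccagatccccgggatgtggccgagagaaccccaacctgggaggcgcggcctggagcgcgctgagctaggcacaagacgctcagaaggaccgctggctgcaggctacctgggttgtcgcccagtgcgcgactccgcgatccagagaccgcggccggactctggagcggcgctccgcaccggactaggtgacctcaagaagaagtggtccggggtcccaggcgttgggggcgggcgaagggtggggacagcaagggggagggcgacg
Dlx2 promoter, chr2:71546705-71547004, minus strand: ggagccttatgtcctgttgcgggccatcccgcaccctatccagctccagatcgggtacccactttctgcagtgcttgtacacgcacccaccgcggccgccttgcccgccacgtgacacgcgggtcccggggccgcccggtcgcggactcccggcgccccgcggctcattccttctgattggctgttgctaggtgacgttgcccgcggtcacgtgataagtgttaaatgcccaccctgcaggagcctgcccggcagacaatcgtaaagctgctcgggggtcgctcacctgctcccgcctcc
Dlx6os1 promoter, chr6:6869484-6869783, minus strand: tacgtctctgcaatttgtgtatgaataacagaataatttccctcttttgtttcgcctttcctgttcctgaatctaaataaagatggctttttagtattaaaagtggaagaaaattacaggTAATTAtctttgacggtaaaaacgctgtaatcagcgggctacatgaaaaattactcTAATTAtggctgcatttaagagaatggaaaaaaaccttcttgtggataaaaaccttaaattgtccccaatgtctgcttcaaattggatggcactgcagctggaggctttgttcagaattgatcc
Dcx promoter, chrX:143933075-143933374, minus strand: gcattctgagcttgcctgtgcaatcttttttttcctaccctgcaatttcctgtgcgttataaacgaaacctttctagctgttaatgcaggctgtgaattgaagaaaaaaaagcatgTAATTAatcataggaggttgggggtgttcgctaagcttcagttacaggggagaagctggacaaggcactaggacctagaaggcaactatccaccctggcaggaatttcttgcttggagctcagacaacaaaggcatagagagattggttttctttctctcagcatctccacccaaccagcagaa
The Dlx6os1 window held 2 copies of TAATTA and the Dcx window 1, while the Dlx1 and Dlx2 windows held 0. RefSeq lists 2 promoters for Dlx6os1 and 2 for Dcx, and for each gene the 1 with the most copies of TAATTA is shown. Dlx1 and Dlx2 have 1 listed promoter each, so these counts do not compare unselected windows. Of 32851 such mouse promoters, 1738 (5.29%) held the letters on either strand, and 6.12% of 27025 genes had at least 1 promoter with them. Among the 20 genes with the largest difference between Dlx-positive and Dlx-zero cells, 13 had a listed promoter and 3 of these (Sp8, Dcx and Elavl4) had a match. A match is a description of the letters and is no evidence of binding.

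Dlx transcripts were concentrated in tumour 2. There the 61 Dlx-positive cells made up 3.94% of 1548 kept cells (exact interval 3.03% to 5.03%). The members numbered 0 of 3361 cells in tumour 1, which allows a share of up to 0.0893%, and 0 of 4377 in tumour 4, which allows up to 0.0685%. Of the 1006 tumour 2 cells under the myeloid limit, 793 held 0 Dlx UMIs, 122 held 1, 30 held 2, 10 held 3 and 9 held 4. A further 17 cells held 5 to 9 UMIs, 19 held 10 to 19 and 6 held 20 or more. The number of cells thus decreased up to 4 UMIs, and 42 cells formed a long upper range of 5 UMIs or more. In tumour 1 the highest count was 1 UMI, in 3 cells. Under the same limit, 70 cells of tumour 4 held 1 UMI and 4 held 2.

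Free RNA in the droplets can add to such shares, and its part here was not tested. Tumour 2 cells under the myeloid limit held at least 1 Dlx UMI in 213 of 1006 cells (21.2%) at a median depth of 8330 UMIs. Cells of the same tumour at or over the myeloid limit, called myeloid cells below, held at least 1 in 35 of 542 (6.46%) at a median of 7231.5 UMIs. This set did not hold myeloid RNA alone, since 240 of the 542 (44.3%) had Olig1 or Olig2 and 138 (25.5%) had Sox10. At least 3 Dlx UMIs were found in 61 of those 1006 cells (6.06%) and in 7 of the 542 myeloid cells (1.29%, exact interval 0.521% to 2.64%). The 61 members held 574 Dlx UMIs, 68.4% of all Dlx UMIs in the kept cells of tumour 2. Median depth was similar in the 2 sets. Members had a median of 7986 UMIs (2953 to 59955) and 2728 genes, against 7825 UMIs and 2717 genes in Dlx-zero cells of the tumour. The number of cells that met the rule still varied with depth. With cells thinned to 4000 UMIs, 35 of 1346 (2.60%) were members. Mitochondrial UMIs took a median of 5.72% in Dlx-positive cells and 6.64% in Dlx-zero cells.

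**Figure D1:**
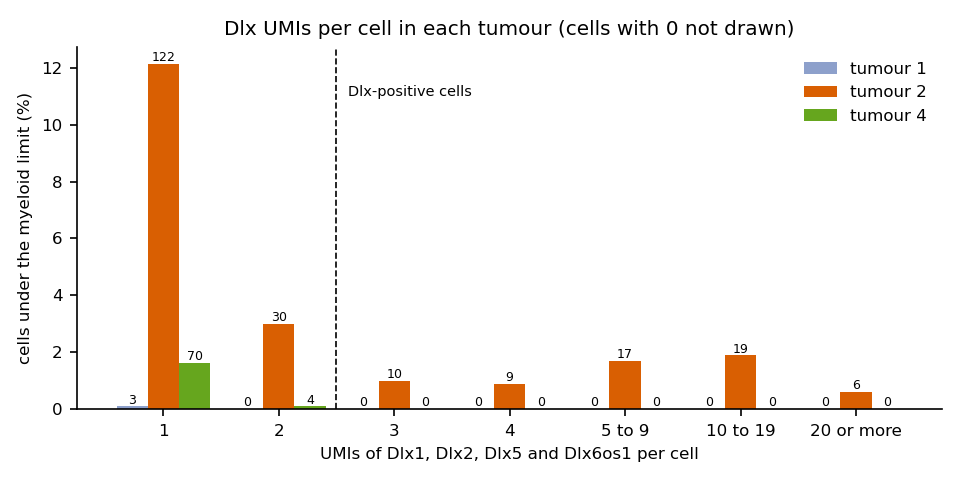
Share of cells under the myeloid limit (percent, vertical axis) by summed UMIs of Dlx1, Dlx2, Dlx5 and Dlx6os1 (horizontal axis) in each tumour, with the number of cells above each bar; the dashed line marks the rule's minimum of 3 UMIs. Tumour 2 alone had cells right of the line, 61 in all, and 42 of them held 5 UMIs or more.

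Dlx1 and Dlx2 carried most of the signal and Dlx5 almost none. Dlx1 had 207 UMIs in 51 of the 61 cells, with a median of 2 and a maximum of 16 per cell. Dlx2 had 178 UMIs in 52 cells, with a median of 3 and a maximum of 11. Dlx6os1 had 187 UMIs in 33 cells, with a median of 1 and a maximum of 17, while Dlx5 had 2 UMIs in 2 cells. Dlx6, which the rule did not use, had 11 UMIs in 10 cells, 8 of which also held Dlx6os1, and 2 UMIs in the 793 Dlx-zero cells.

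Most members held more than 1 gene of the set. Of the 61 cells, 42 held both Dlx1 and Dlx2, 20 held Dlx1, Dlx2 and Dlx6os1, and 6 held a single gene of the 4. Dlx6os1 was never found in a member without Dlx1 or Dlx2, whereas 28 members had Dlx1 or Dlx2 without Dlx6os1. Dlx6os1 was found in 28 of the 42 cells with 5 or more Dlx UMIs and in 5 of the 19 cells with 3 or 4. These counts are tied to the rule, which sums the same genes.

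**Figure D2:**
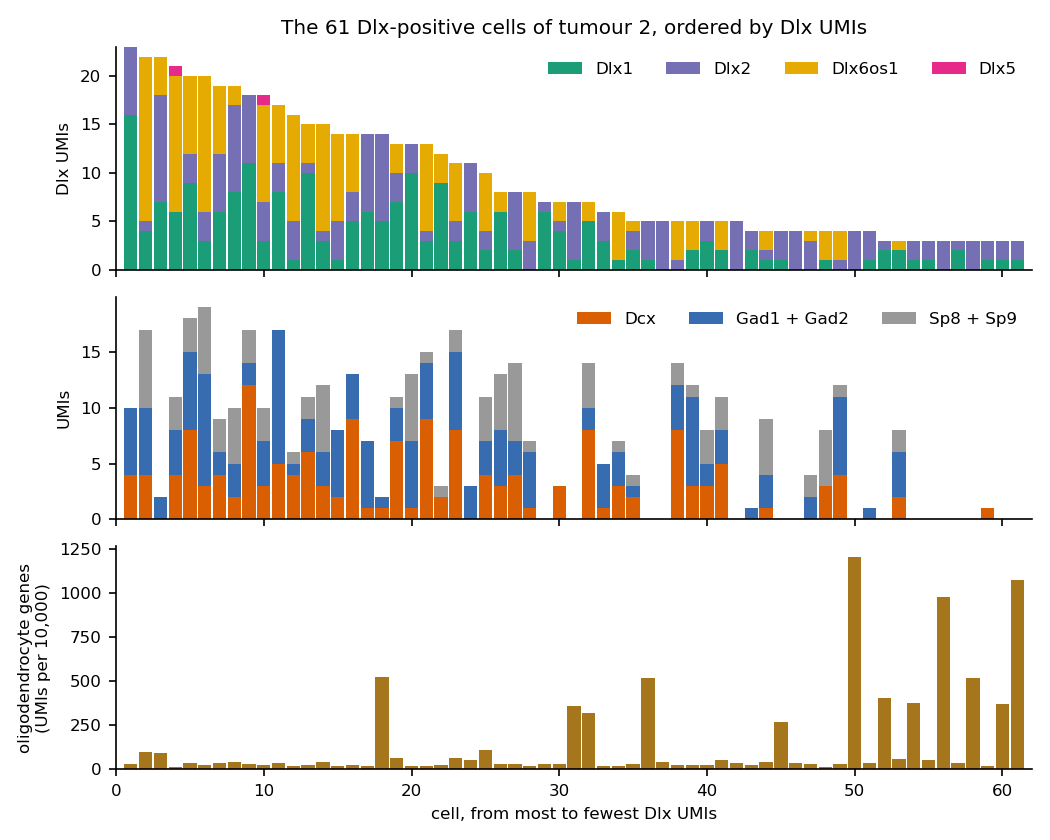
The 61 Dlx-positive cells in order of their Dlx UMIs (horizontal axis), with the UMIs of each Dlx gene (top), the UMIs of Dcx, Gad1 with Gad2 and Sp8 with Sp9 (middle) and 12 oligodendrocyte genes per 10000 UMIs (bottom). Neuronal marker UMIs lay mostly in cells with 5 or more Dlx UMIs, and the highest oligodendrocyte levels mostly in cells with 3 or 4.

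Markers of interneuron neuroblasts were found in most but not all members. Dcx was detected in 40 of 61 Dlx-positive cells (65.6%) and in 111 of 793 Dlx-zero cells (14.0%). Sp9 was detected in 18 of the 61, and Sp8 or Sp9 in 32, against 7 of the 793. Gad1 or Gad2, the enzymes that make GABA, were found in 41 Dlx-positive cells (67.2%) and 100 Dlx-zero cells (12.6%). Dcx together with either was found in 36 Dlx-positive cells (59.0%), against 26 Dlx-zero cells (3.28%). Olig1 or Olig2, factors of the oligodendrocyte lineage, were also found in 40 members, against 706 of the 793 Dlx-zero cells (89.0%). Of the 42 members with 5 or more Dlx UMIs, 24 held them. At least 1 UMI of any of Dcx, Gad1, Gad2, Sp8 and Sp9 was present in 45 members, and all 3 kinds (Dcx, a Gad gene and Sp8 or Sp9) in 29. These 2 counts were not made for Dlx-zero cells.

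The other 16 members held none of these 5 genes. Of these, 10 had Sox10, the master factor of the oligodendrocyte lineage, against 11 of the 45 with a neuronal marker. Their 12 oligodendrocyte genes summed to a median of 362.4 per 10000 UMIs (28.1 to 1206), against 26.6 per 10000 (11.7 to 526.1) in the 45. Their median of Dlx UMIs was 3.5, against 11 in the 45, and their median depth was 13720 UMIs, against 6677. Of the 12 members with 200 or more oligodendrocyte UMIs per 10000, 10 belonged to the 16 without a neuronal marker. Whether doublets or free RNA placed Dlx UMIs in these cells was not tested.

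The number of Dlx UMIs separated the 2 kinds of members only in part. Among the 42 cells with 5 or more Dlx UMIs, 35 held Dcx (83.3%), 35 held Gad1 or Gad2, 27 held Sp8 or Sp9 and 10 held Sox10. Among the 19 cells with 3 or 4, 5 held Dcx (26.3%), 6 held a Gad gene, 5 held Sp8 or Sp9 and 11 held Sox10. The 152 cells with 1 or 2 Dlx UMIs, which are not members, held Dcx in 29 (19.1%), a Gad gene in 30 and Sp8 or Sp9 in 2. Values right at the rule's minimum are given for cells on either side of it. The 10 cells with 3 Dlx UMIs had Dcx at 23.4 CPM (UMI counts scaled to a common library total of 1000000) and the 30 cells with 2 had it at 29.7 CPM, while Meis2 stood at 148.5 and 93.3 CPM, Gad2 at 7.82 and 33.9 CPM, Meg3 at 218.8 and 89.0 CPM and the summed oligodendrocyte genes at 51979 and 55570 CPM.

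**Figure D3:**
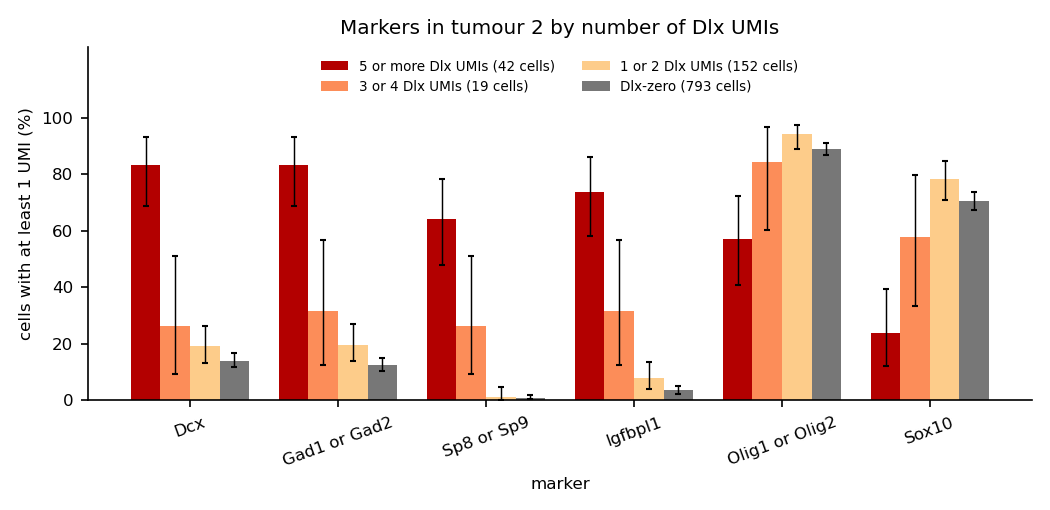
Percent of tumour 2 cells with at least 1 UMI of each marker (horizontal axis) in cells with 5 or more, 3 or 4, 1 or 2 and 0 Dlx UMIs, with exact 95% binomial intervals. Dcx was found in 83.3%, 26.3%, 19.1% and 14.0% of these cells, and Sox10 was lowest in the cells with 5 or more.

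Detection was also compared at 1 depth, with each cell thinned to 4000 UMIs, which left out 5 Dlx-positive and 112 Dlx-zero cells. Dcx was then detected in 55.4% of 56 Dlx-positive cells, against 6.90% of 681 Dlx-zero cells and 2.58% of 466 myeloid cells. Igfbpl1 was detected in 50% of Dlx-positive and 1.91% of Dlx-zero cells, Gad2 in 48.2% and 6.02%, Sp8 in 35.7% and 0.147%, and Pax6 in 39.3% and 7.05%. Sox10 went the other way, with 25% of Dlx-positive and 57.0% of Dlx-zero cells.

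Over all genes the profile of Dlx-positive cells differed from that of Dlx-zero cells of tumour 2 in both directions. UMIs were summed over each set of cells and scaled to CPM, and differences are given on the log2(CPM + 10) scale, which understates the change of low genes. Of 9012 genes with a mean level of at least 10 CPM, 266 (2.95%) were at least 2-fold higher and 172 (1.91%) at least 2-fold lower in Dlx-positive cells, and the median difference was 0.00. More genes were higher than lower in most settings, but not in all. With only cells low in myelin genes on both sides, 444 were higher and 526 lower. Without cells above the 95th percentile of UMIs, 425 were higher and 430 lower, and against all Dlx-zero cells, myeloid cells included, 370 and 411. The 12 most raised genes included Igfbpl1, Cdca7, Sp8, Ccnd2, Dcx, Gad2, Celf4, Tiam2, Nol4, Cd24a and Meis2. Igfbpl1, which encodes a secreted insulin-like growth factor binding protein family member found in neuroblasts (chr4:45809468-45826923), led with 309.2 CPM (267.8 to 355.3) in Dlx-positive cells and 4.85 CPM in Dlx-zero cells, a log2 difference of 4.43. It was present in 37 of the 61 cells. Cdca7, a Myc-responsive cell cycle gene, had 212.9 CPM in Dlx-positive cells and 4.58 CPM in Dlx-zero cells, a log2 difference of 3.93. Cyclin D2 (Ccnd2), which drives the G1 phase of neural progenitors, stood at 1018 CPM in Dlx-positive cells and 94.2 CPM in Dlx-zero cells, with UMIs in 47 members.

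**Figure D4:**
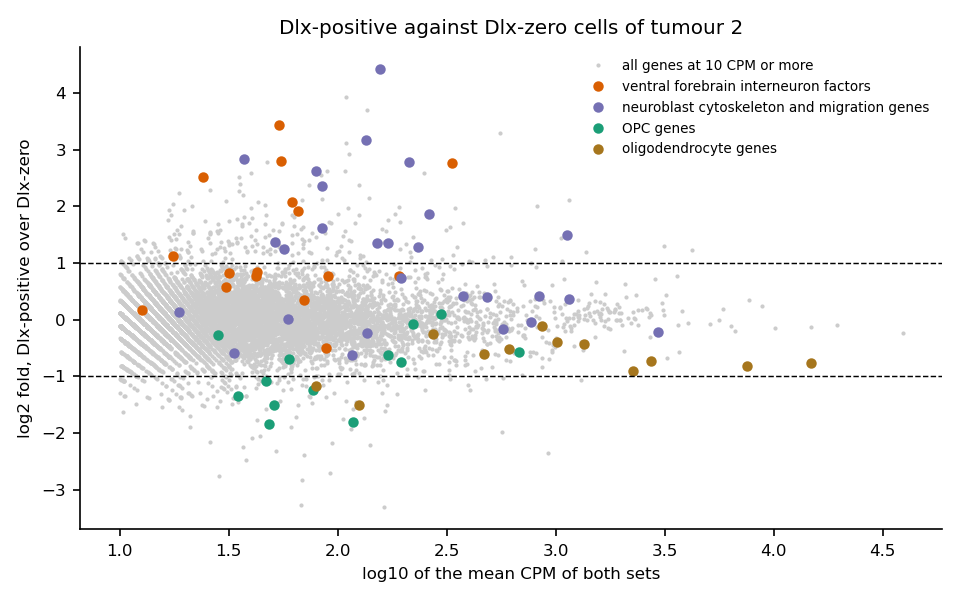
Difference between Dlx-positive and Dlx-zero cells of tumour 2 (log2(CPM + 10), vertical axis) against mean level (log10 CPM, horizontal axis) for genes with a mean of at least 10 CPM, with 4 gene lists coloured and dashed lines at 2-fold. Of 9012 genes, 266 lay above the upper line and 172 below the lower one.

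Transcription factors of ventral forebrain interneurons included several of the genes with the largest differences. Of 29 listed factors, 16 passed the level filter, 7 of these were at least 2-fold higher in Dlx-positive cells (against 2.95% of all genes) and 0 at least 2-fold lower. Over all 29 the median log2 difference was 0.35, since a gene low in Dlx-zero cells passes the filter only where Dlx-positive cells are high. The list is not independent of the rule, since its genes are known partners of Dlx. Sp8 (chr12:118846329-118852576), a zinc finger factor of olfactory bulb interneurons, had 69 UMIs in 28 Dlx-positive cells, or 107.2 CPM (83.4 to 135.7), and 6 UMIs, or 0.786 CPM, in Dlx-zero cells. Its CPM ratio was 136 (59.6 to 385). Sp9 (chr2:73271925-73284706), its close relative, had 31 UMIs, or 48.2 CPM, in Dlx-positive cells and 1 UMI, or 0.131 CPM, in Dlx-zero cells, a ratio of 368 with a counting interval of 61.3 to 14990. Both genes were thus near 0 outside the Dlx-positive cells.

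Meis2, a homeobox cofactor of Dlx and Pax6 in olfactory bulb neurogenesis, had 588.9 CPM in Dlx-positive cells, with UMIs in 50 of 61, and 77.9 CPM in Dlx-zero cells. Pax6 had 105.7 CPM in Dlx-positive and 17.4 CPM in Dlx-zero cells. Zic1 had the smallest difference of the 7, at 28.0 CPM in Dlx-positive and 7.33 CPM in Dlx-zero cells. Factors that mark the medial ganglionic eminence were at or near 0: Nkx2-1 and Lhx8 had 0 UMIs in the 61 cells and Lhx6 had 1. Isl1, another factor of the list, also had 0 UMIs. Etv1 and Prox1 lay below 2-fold, with log2 differences of 0.77 each, and Sox6 had a log2 difference of -0.50.

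**Figure D5:**
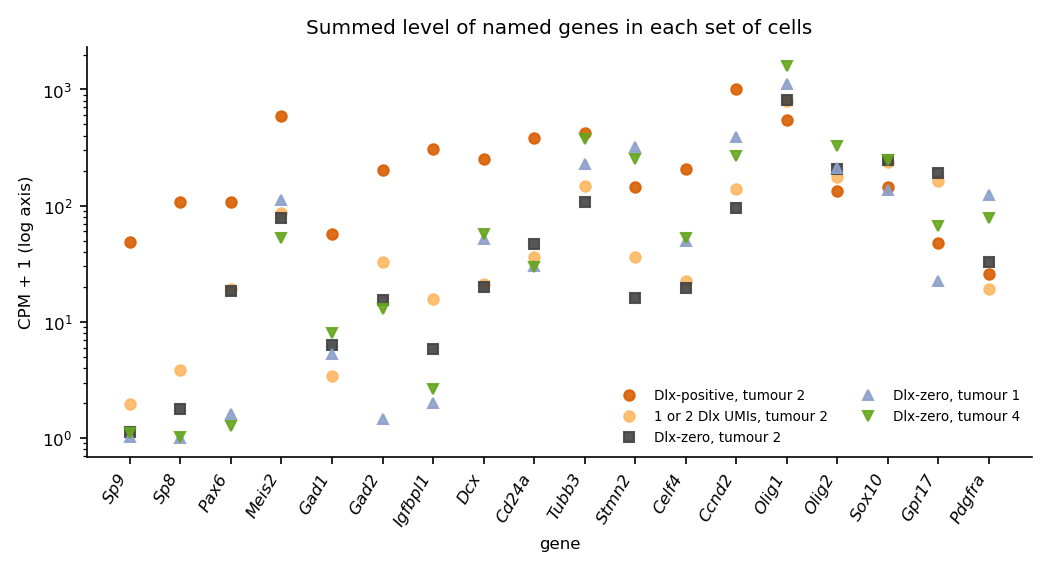
Level of 18 genes (CPM + 1, log axis) in Dlx-positive cells, in cells with 1 or 2 Dlx UMIs and in Dlx-zero cells of tumour 2, and in Dlx-zero cells of tumours 1 and 4. Sp8, at 107.2 CPM in Dlx-positive cells, and Sp9, at 48.2 CPM, were under 1 CPM in the Dlx-zero cells of all 3 tumours.

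Genes of GABA synthesis and transport and of interneuron subtypes were unevenly detected. Of 16 listed genes, 6 passed the level filter, with 3 at least 2-fold higher and 1 at least 2-fold lower, and the median log2 difference over the 16 was 0.22. Gad2 (chr2:22622205-22693874) had 131 UMIs in 39 Dlx-positive cells, or 203.6 CPM, against 14.5 CPM in Dlx-zero cells, and Gad1 (chr2:70553072-70602014) had 55.9 CPM against 5.37 CPM. Htr3a, the ionotropic serotonin receptor subunit of interneurons from the caudal ganglionic eminence, had 32.6 CPM in 13 Dlx-positive cells and 1.18 CPM in Dlx-zero cells. The vesicular GABA transporter Slc32a1 had 9 UMIs in Dlx-positive cells and 4 in Dlx-zero cells, a CPM ratio of 26.7 (7.45 to 119). Neuropeptide and calcium-binding genes of mature interneuron classes were scarce. Sst had 0 UMIs in the 61 cells, Npy, Calb2, Pvalb and Vip had 1 each, and Th had 3. Penk, the proenkephalin gene, was lower, at 14.0 CPM in Dlx-positive cells and 45.6 CPM in Dlx-zero cells, but its log2 difference of -1.21 was -0.10 with only cells low in myelin genes and -0.06 against Dlx-zero cells with at least 2 Dcx UMIs.

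Cytoskeletal and adhesion genes of migrating neuroblasts were higher as a group. Of 30 listed genes, 27 passed the level filter, 14 were at least 2-fold higher and 0 at least 2-fold lower, with a median log2 difference of 0.85 over the 30. Dcx (chrX:143855842-143933311), which stabilises microtubules in migrating neurons, had 161 UMIs, or 250.2 CPM (213.0 to 292.0), in Dlx-positive cells and 19.0 CPM (16.0 to 22.4) in Dlx-zero cells. Cd24a, a surface protein of neuroblasts, had 379.2 and 46.2 CPM in Dlx-positive and Dlx-zero cells, the collapsin response mediator Crmp1 149.2 and 21.1 CPM, and the neuronal tubulin Tubb3 419.6 and 107.5 CPM. Stmn2, a microtubule regulator of growing axons, had 144.5 CPM in 24 Dlx-positive cells and 15.2 CPM in Dlx-zero cells. Among the listed genes under 2-fold were Tuba1a, Gap43 and Stmn4, with log2 differences of -0.21, -0.24 and -0.17. The summed list stood at 13787 CPM in cells with 5 or more Dlx UMIs and 8992 CPM in cells with 3 or 4, against 8756 CPM in Dlx-zero cells.

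Genes of neuronal commitment were also higher, and some synaptic genes with them. Of 25 neuronal fate and RNA-binding genes, 16 passed the level filter, 9 were at least 2-fold higher and 0 at least 2-fold lower, with a median log2 difference of 0.63 over the 25. The SoxC factor Sox11 was the most abundant of the 9, at 1319 CPM in 55 Dlx-positive cells, against 320.1 CPM in Dlx-zero cells. Insm1, a factor of delaminating progenitors, had 65.3 and 5.63 CPM in Dlx-positive and Dlx-zero cells. Elavl4 had 150.7 and 17.4 CPM, and Rbfox2 102.6 and 21.1 CPM. Sox4 and Elavl3 were shared more evenly, with log2 differences of 0.63 and 0.38, and Rbfox3, the NeuN antigen of mature neurons, had 1 UMI in the 61 cells. Of 18 synapse and mature neuron genes, 13 passed the level filter, with 5 at least 2-fold higher and 1 at least 2-fold lower, and the median over the 18 was 0.08. Their sum was 918.4 CPM in Dlx-positive and 666.4 CPM in Dlx-zero cells. Snap25, a vesicle fusion protein, had 65.3 CPM in Dlx-positive and 13.0 CPM in Dlx-zero cells, Syt1 34.2 and 0.786 CPM, and the adhesion protein Nrxn3 161.6 and 17.9 CPM. The neurofilament gene Nefl was lower, at 4.66 CPM in Dlx-positive and 37.6 CPM in Dlx-zero cells.

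Glutamatergic identity genes were nearly absent. Tbr1, Eomes, Slc17a6, Neurod2 and Neurod6 had 0 UMIs in the 61 cells, and the 14 UMIs of Neurod1 came from 1 cell. Of 24 guidance and migration receptors, 12 passed the level filter and 2 were at least 2-fold higher. These were the Slit receptor gene Robo2, at 69.9 CPM in Dlx-positive and 10.4 CPM in Dlx-zero cells, and the Reelin adaptor Dab1, at 60.6 and 12.3 CPM. The neuregulin receptor Erbb4 (23.3 and 19.9 CPM) and the chemokine receptor Cxcr4 (10.9 and 5.11 CPM), both known from interneuron migration, were under 2-fold. Of 12 Notch and proneural genes that passed the level filter, 0 were past 2-fold in either direction.

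Cell cycle genes were higher in Dlx-positive cells. Of 56 listed genes, 42 passed the level filter, 22 were at least 2-fold higher (against 2.95% of all genes) and 0 at least 2-fold lower, with a median log2 difference of 0.84 over the 56. The count was 9 with a minimum of 2 Dlx UMIs. The proliferation antigen Mki67 had 96.3 CPM in Dlx-positive and 27.6 CPM in Dlx-zero cells, the topoisomerase Top2a 183.4 and 39.0 CPM, and the mitotic ubiquitin enzyme Ube2c 202.0 and 48.9 CPM. Pcna and Mcm2, both used in DNA replication, had log2 differences of 0.06 and 0.22. Per cell, with every cell thinned to 2000 UMIs, 16 of 61 Dlx-positive cells (26.2%, 15.8% to 39.1%) held at least 5 UMIs of the list, against 85 of 793 Dlx-zero cells (10.7%, 8.65% to 13.1%). The share was 15 of 42 (35.7%) in cells with 5 or more Dlx UMIs and 1 of 19 (5.26%) in cells with 3 or 4. Among Dlx-zero cells of tumours 1 and 4 it was 36.8% and 26.8%, both within the counting interval of the share in all 61 Dlx-positive cells. With only cells low in myelin genes on both sides, the shares were 36.8% in Dlx-positive and 18.9% in Dlx-zero cells.

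Genes of the oligodendrocyte lineage were lower. The 2 sets also differed in how many of their cells carried myelin. Myelin genes (Mag, Mog, Mobp, Ermn and Opalin together) reached 5 per 10000 UMIs in 23 of 61 Dlx-positive cells (37.7%) and 560 of 793 Dlx-zero cells (70.6%). Of 13 oligodendrocyte precursor genes that passed the level filter, 6 were at least 2-fold lower (against 1.91% of all genes) and 0 at least 2-fold higher in Dlx-positive cells. The count of lower genes was 2 with a minimum of 2 Dlx UMIs and 8 with a minimum of 5. The orphan receptor Gpr17 had 46.6 CPM in Dlx-positive and 188.6 CPM in Dlx-zero cells, the matrilin Matn4 15.5 and 80.9 CPM, and the sialidase Neu4 21.8 and 80.3 CPM. Olig1 (547.0 and 815.6 CPM), Olig2 (132.1 and 207.7 CPM) and Sox10 (143.0 and 246.8 CPM) were under 2-fold lower, and Pdgfra had 24.9 and 32.0 CPM. Of 9 genes of committed precursors 7 were at least 2-fold lower (against 1.91% of all genes), but 1 with a minimum of 2 Dlx UMIs and 3 against all Dlx-zero cells, myeloid cells included. Among the 7 were Bmp4 at 20.2 CPM in Dlx-positive and 102.4 CPM in Dlx-zero cells and Bcas1 at 236.2 and 569.6 CPM.

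The 12 genes of myelinating oligodendrocytes were unevenly spread over the members. Opalin (60.6 and 190.4 CPM in Dlx-positive and Dlx-zero cells) and Aspa (45.1 and 113.3 CPM) were at least 2-fold lower, while Mbp had 5431 and 9583 CPM. This count of 2 was 0 with a minimum of 2 Dlx UMIs, 9 with a minimum of 5 and 10 without cells above the 95th percentile of UMIs. The summed list stood at 15113 CPM in cells with 5 or more Dlx UMIs, 45289 CPM in cells with 3 or 4 and 40182 CPM in Dlx-zero cells. Per cell the list had a median of 32.7 per 10000 UMIs in Dlx-positive cells and 181.5 in Dlx-zero cells. When both sets were limited to cells low in myelin genes, Opalin turned to a log2 difference of 0.54 and Aspa stood at -0.96, and against Dlx-zero cells with at least 2 Dcx UMIs they stood at 0.44 and 0.69. In the low-myelin setting 11 of 14 precursor genes were at least 2-fold lower in Dlx-positive cells, Sp8 had a log2 difference of 3.92, Gad2 4.04, Igfbpl1 4.59 and Dcx 3.33. Of 26 neuroblast cytoskeleton and migration genes that passed the level filter in this setting, 13 were at least 2-fold higher. Cd24a and Meis2 had log2 differences of 2.40 each, and Stmn3 (0.90), Dpysl3 (0.97) and Dclk1 (0.73) were under 2-fold.

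Of 11 neural stem cell genes that passed the level filter, 3 were at least 2-fold higher (against 2.95% of all genes), with a median log2 difference of 0.12 over the 12 measured. Against Dlx-zero cells with at least 2 Dcx UMIs, 0 of 10 were higher and 1 was lower, and with a minimum of 2 Dlx UMIs 1 of 11 was higher. The glutamate transporter Slc1a3 had 472.4 CPM in Dlx-positive and 207.3 CPM in Dlx-zero cells, and Sox9 217.6 and 80.4 CPM, with Pax6 as the third. Slc1a3 had a log2 difference of 0.70, under 2-fold, with only cells low in myelin genes. The astrocyte list was even, with 1476 CPM in Dlx-positive and 1501 CPM in Dlx-zero cells in sum. Of 12 interferon response genes 2 were at least 2-fold lower, Ifit1 (101.0 and 235.7 CPM) and Rsad2 (37.3 and 110.0 CPM), against 1.91% of all genes. The count was 0 with a minimum of 2 Dlx UMIs, 0 with stricter limits on cells (1000 genes and 10% mt- UMIs) and 8 with a minimum of 5 Dlx UMIs. Microglia genes, limited by the rule, summed to 436.7 CPM in Dlx-positive and 454.5 CPM in Dlx-zero cells, and endothelial genes to 24.9 and 169.2 CPM. Mural genes summed to 1.55 and 19.5 CPM, so that RNA of vascular cells was lower in the Dlx-positive cells. T and NK cell genes summed to 9.32 and 77.0 CPM, most of it Ccl5 (6.22 and 67.3 CPM). Ccl5 stood at 279.7 CPM in the myeloid cells of tumour 2, so this sum does not measure lymphoid RNA alone. The part of these cell types in the differences was not tested.

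The most reduced single genes, such as Ttr and Nov, were not on the neural gene lists. Bmp4, Matn4 and Gpr17 of the oligodendrocyte precursor lists came further down, at ranks 17 to 19. Ttr, the transthyretin of choroid plexus, had 21.8 CPM in Dlx-positive and 304.2 CPM in Dlx-zero cells, a log2 difference of -3.31. It was detected in 12 of 61 Dlx-positive cells (19.7%) and in 122 of 793 Dlx-zero cells (15.4%), so the difference lay in the UMIs per cell, and against Dlx-zero cells with at least 2 Dcx UMIs it turned to 1.29. The matricellular gene Nov had 9.32 and 128.0 CPM, a log2 difference of -2.84 that shrank to -0.27 with only cells low in myelin genes on both sides. The surface antigen gene Ly6a had 17.1 and 166.7 CPM, and its log2 difference of -2.71 was -3.38 in that setting. Cldn5, the tight junction protein of endothelium, had 0 UMIs in the 61 cells and 57.2 CPM in Dlx-zero cells, and was at least 12.3-fold lower against a floor of 3 counts over the set. Its UMIs lay in 30 of the 793 Dlx-zero cells, and its log2 difference against Dlx-zero cells with at least 2 Dcx UMIs was 0.00. The milk protein gene Csn2 had 15.5 and 124.2 CPM, and Ptgds, prostaglandin D synthase, 295.2 and 1544 CPM. Their log2 differences of -2.39 and -2.35 were -1.48 and -0.85 in cells low in myelin genes.

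A second set of tumour 2 cells carried Dcx without Dlx and gave a closer comparison, chosen after the data were seen. It held the 27 Dlx-zero cells with at least 2 Dcx UMIs. Dcx had 250.2 CPM in Dlx-positive cells and 184.0 CPM in these cells, a log2 difference of 0.42 for Dlx-positive over Dcx-positive Dlx-zero cells. Some genes followed Dcx and others did not. Of the 27 neuroblast cytoskeleton and migration genes that passed the level filter here, 9 were at least 2-fold higher in Dlx-positive cells and 1 at least 2-fold lower, fewer than the 14 against all Dlx-zero cells. Dpysl3 and Basp1 of this list had log2 differences of 0.43 and 0.49, and Elavl2 of the neuronal fate list had 0.64, all under 2-fold. Sp8 or Sp9 was found in 32 of 61 Dlx-positive cells and in 0 of these 27, which allows a share of up to 11.1%. Igfbpl1 had 309.2 CPM in Dlx-positive and 3.02 CPM in Dcx-positive Dlx-zero cells, Gad2 203.6 and 9.05 CPM, and Stmn2 144.5 and 9.05 CPM. Sox10 was detected in 21 of 61 Dlx-positive cells and in 21 of the 27, and Olig1 or Olig2 in 40 of 61 and in 27 of 27. Dcx thus also occurred in tumour 2 cells that carried oligodendrocyte lineage genes and lacked Sp8 and Sp9.

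The engineered genes were present in Dlx-positive cells, and their levels relative to Dlx-zero cells varied with the cells compared. H3f3a had 1925 CPM in Dlx-positive and 832.7 CPM in Dlx-zero cells, a log2 difference of 1.20. Trp53 had 88.6 and 72.3 CPM and Pdgfra 24.9 and 32.0 CPM, both under 2-fold. With only cells low in myelin genes, the log2 differences were 1.15 for H3f3a, 0.27 for Trp53 and -1.05 for Pdgfra. Against Dlx-zero cells with at least 2 Dcx UMIs they were 0.88, 0.21 and -1.44, so Pdgfra was past 2-fold lower in both settings. These counts do not tell the cassette's transcripts from those of the mouse genes. WPRE, a viral RNA element used in expression constructs and counted as a row of its own, had 554.8 CPM (498.7 to 615.4) in Dlx-positive cells and 409.5 CPM (395.3 to 424.2) in Dlx-zero cells. Its log2 difference was 0.26 with only cells low in myelin genes and -0.46 against Dlx-zero cells with at least 2 Dcx UMIs. With every cell thinned to 2000 UMIs, WPRE was detected in 42 of 61 Dlx-positive cells (68.9%, 55.7% to 80.1%) and in 47.9% of Dlx-zero cells (44.4% to 51.5%). The share was 20.8% in myeloid cells of the same tumour and 63.0% in Dlx-zero cells with at least 2 Dcx UMIs.

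In Dlx-zero cells of the other 2 tumours, parts of the neuronal profile appeared without Dlx. Dcx, at 250.2 CPM in Dlx-positive cells, stood at 50.2 CPM in Dlx-zero cells of tumour 1 and 55.7 CPM in those of tumour 4. Stmn2, at 144.5 CPM in Dlx-positive cells, was higher in both, at 315.9 and 252.9 CPM. Tubb3 had 419.6 CPM in Dlx-positive cells and 229.7 and 371.6 CPM in these Dlx-zero cells. The interneuron factors did not accompany them. Sp8 had 0 UMIs in tumour 1 and 0.0200 CPM in tumour 4, Sp9 0.0227 and 0.100 CPM, Igfbpl1 0.997 and 1.66 CPM, and Pax6 0.612 and 0.261 CPM. Gad2 had 0.453 CPM in tumour 1 and 11.8 CPM in tumour 4, and Meis2 112.0 and 51.7 CPM. Tumours, ages and libraries cannot be told apart in these differences, since each tumour was 1 library.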

How the data were processed

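Droplet 3′ libraries of GFP+ sorted cells from 3 tumours were deposited by the authors as raw UMI counts per gene and cell barcode, not normalized. Per the submitters' processing notes, STAR 2.5.1, Cell Ranger 1.3.0 and mm10 were used; how barcodes were kept and whether strand was used in counting are not given in the sources used here. Totals were 47120617, 15231673 and 53551127 UMIs in tumours 1, 2 and 4. Of the 27999 table entries, 27645 (98.7%) matched a GENCODE gene by its Ensembl identifier.

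Barcodes with over 20% mt- UMIs were removed (25, 81 and 247 in tumours 1, 2 and 4), as were 3 in tumour 2 with under 500 genes. Dlx-zero cells were held to the same myeloid limit as members. Barcodes shared between libraries numbered 6 between tumours 1 and 2 (1 of them a member), 20 between tumours 1 and 4 and 11 between tumours 2 and 4. Doublets were not called; leaving out cells above the 95th percentile of UMIs was an alternative. UMI sums were scaled to CPM, and log2((CPM + 10)/(CPM + 10)) was taken for genes with a mean of at least 10 CPM in the 2 sets. The tests planned across tumours (edgeR's quasi-likelihood test on summed counts and exact sign-flip tests) had no replicate because all members were in 1 tumour, so no test was run.

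Members and gene lists were chosen with earlier results of these data known. Named genes were those of the lists past 2-fold, the 12 with the largest and the 12 with the smallest difference, and the engineered genes; others named were chosen after their values were seen. Some members of the lists are counted but not reported here by name. Python 3.11.15, numpy 2.4.6, scipy 1.17.1, pandas 2.3.3 and matplotlib 3.10.9 were used, and the steps were tested on simulated data.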

Additional observations from a re-analysis of the deposited data

Results flagged for a closer look

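At least 3 Dlx UMIs were also found in 7 tumour 2 cells at or over the myeloid limit, 1.29% of 542, in data the comparisons did not use. They held 3 to 15 Dlx UMIs and 1 to 10 Dcx UMIs each, and 3 of them lay just over the limit of 15, at 15.9, 16.4 and 17.3 myeloid UMIs per 10000.

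A further 152 cells of tumour 2 under the myeloid limit, 9.82% of its kept cells, held 1 or 2 Dlx UMIs and entered neither set, while tumour 1 had 3 cells with 1 UMI. Of the 152, 2 held Sp8 or Sp9.

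In tumour 4, 64 cells held a Dlx2 UMI, 1.46% of kept cells and 68 UMIs in all, against 1 cell in tumour 1. None of them reached 3 Dlx UMIs.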

How the results depend on the processing

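The share of Dlx-positive cells in tumour 2 (3.94%) was 5.88% with at least 2 Dlx UMIs, 2.71% with at least 5 and 2.60% with cells thinned to 4000 UMIs. In tumour 4 it was 0.0914% with at least 2 UMIs, and in tumours 1 and 4 it was 0% under all other settings tried. The count of genes at least 2-fold higher (266) was 133 with at least 2 Dlx UMIs, 415 with at least 5, 444 with only cells low in myelin genes, 425 without cells above the 95th UMI percentile, 517 with a pseudocount of 1 CPM, 441 with a mean over cells and 447 against Dcx-positive Dlx-zero cells. The count of lower genes (172) was 52, 377, 526, 430, 416, 371 and 438 under the same settings in that order, and 411 against all Dlx-zero cells, myeloid cells included, where the median difference shifted by 0.131. The cycling share without thinning was 52.5% in Dlx-positive and 42.2% in Dlx-zero cells, and the Dlx-zero share was 7.57% with a minimum of 10 UMIs and 18.9% with cells low in myelin. The WPRE share without thinning was 86.9% in Dlx-positive and 79.4% in Dlx-zero cells, and the Dlx-zero share was 61.8% with cells low in myelin. Directions turned for 5 lower genes against Dcx-positive Dlx-zero cells (Ttr 1.29, Csn1s2a 0.39, Csn3 0.17, Opalin 0.44 and Aspa 0.69, with Cldn5 at 0.00), for Csn2 (0.41) and Txnip (0.18) with at least 2 Dlx UMIs, and for Opalin (0.54) with cells low in myelin; the cause was not tested. Of 107 named genes past 2-fold, 101 to 107 kept their direction under each setting and 63 to 107 stayed past 2-fold. Settings against Dcx-positive Dlx-zero cells, with a pseudocount of 1 CPM, with a mean over cells, with median-of-ratios scaling (255 higher and 183 lower) and without the barcode shared with tumour 1 (264 and 169), and the low-myelin shares, were chosen after seeing the data.

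Leaving out a tumour, edgeR, DESeq2 and TMM scaling were not run, because all members were in 1 tumour. No paired analysis was possible because the members and the Dlx-zero cells with which they were compared came from the same single library. With 61 cells and 643531 UMIs, a gene with 0 UMIs in Dlx-positive cells has an upper limit of 4.66 CPM (3 counts), and differences of low genes rest on few UMIs.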
